A study of Mus musculus with 6 samples.

Results

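The genes described here are 36 listed genes of glycolysis and the response to low oxygen: glycolytic enzymes, glucose and lactate carriers, and genes of the hypoxia-inducible factor (HIF) pathway with some of its targets. They were taken by name from a fixed list, not by their values, and 34 of the 36 had a value among the 19938 genes with a probe set of their own. The expression of the enzymes glucose-6-phosphate isomerase (Gpi1) and enolase 1 (Eno1) was not analysed here. Of the 34, 30 were bright enough to enter the test over 13292 genes, and Pfkfb4, Pdk1, Egln3 and Car9 were dim. The RNA came from Cxcl12-abundant reticular (CAR) cells, stromal cells of the bone marrow, sorted by flow cytometry from femur and tibia of C57BL/6 mice 7 weeks of age. All mice, in both groups, carried the transgene Dmp1-Cre, in which DNA that regulates Dmp1, a bone matrix gene of late osteoblasts and of osteocytes, drives Cre, and 1 Cxcl12-gfp allele (genotype Dmp1-Cre Cxcl12-gfp/+). One group held the CAR cells targeted by this Cre and the other the CAR cells left untargeted, with 3 arrays each, and how targeting was read in the sort is not given in the sources used here. In bulk RNA of sorted cells, fewer cells of a type and less RNA per cell cannot be told apart.

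Glycolysis splits glucose into pyruvate in the cytosol, and cells that lack oxygen reduce the pyruvate to lactate and export it. HIF is a pair of proteins, an oxygen-regulated alpha subunit (Hif1a or Epas1, also called HIF-2 alpha) and the constant partner Arnt. With oxygen, prolyl hydroxylases (Egln genes) mark the alpha subunit and the Vhl protein directs its destruction, so HIF activity is set largely at the protein level, which RNA arrays do not measure. Bone marrow is a tissue of low oxygen tension, and HIF in skeletal cells is known to act on bone formation and on blood vessels.

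No listed gene passed the test between the groups. Over all 13292 genes, 0 (0% called) passed an adjusted p of 0.05 (limma, Benjamini-Hochberg), and 634 (4.77%) had an unadjusted p under 0.05. Among the 30 listed genes tested, 0 passed, with adjusted p from 0.882 to 0.9998, and 3 had an unadjusted p under 0.05: Pdk4 higher (1.35% of all genes were so) and Ndrg1 and Slc16a1 lower (3.42%). Of these, Slc16a1 was bright enough to be tested only through its non-targeted arrays. The listed genes were lower in targeted cells in 21 cases and higher in 9, whereas 51.1% of all genes tested were lower. Their median log2 difference, targeted minus non-targeted, was -0.10, against -0.0051 over all genes. That median was -0.0077 without non-targeted replicate 2 and -0.05 without targeted replicate 3. The 95% interval of the difference lay within 2-fold either way for 27 of the 30 genes and within 1.5-fold for 11. Differences smaller than these intervals cannot be seen with 3 arrays a group.

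**Figure D1:**
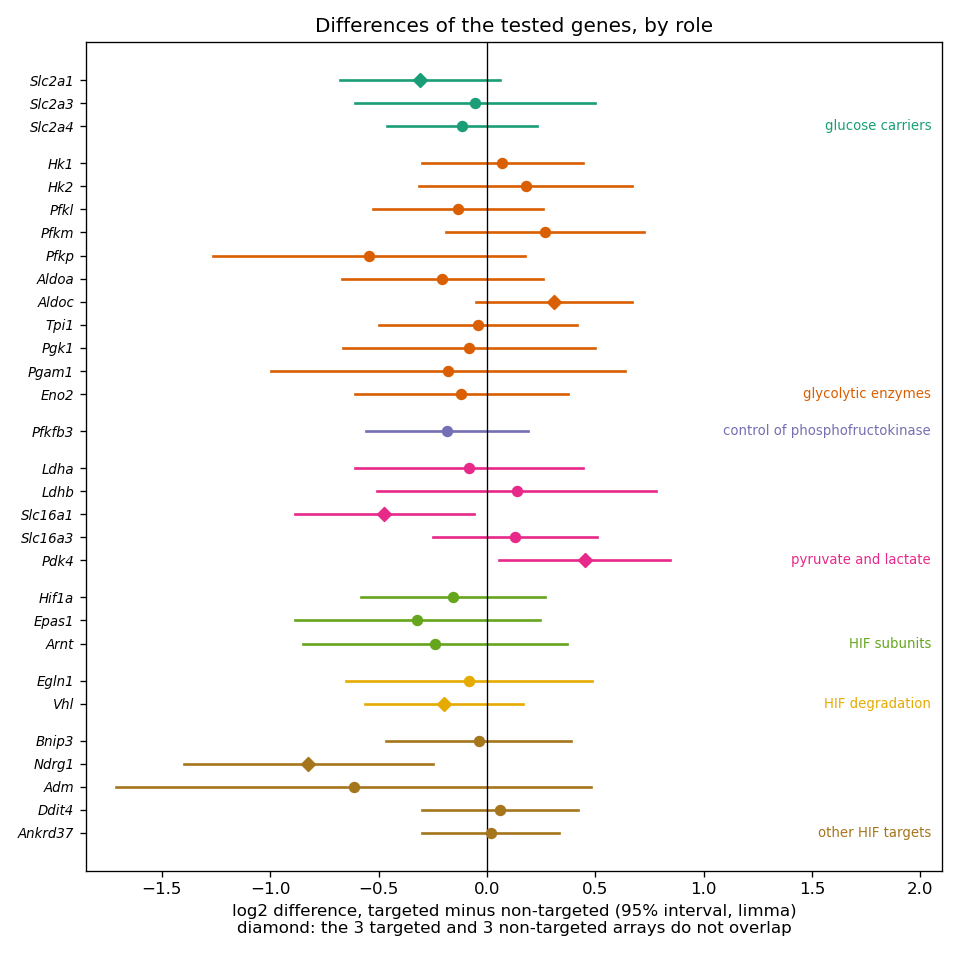
The horizontal axis is the log2 difference, targeted minus non-targeted, of the 30 listed genes tested, arranged by role. Points are the fitted differences, lines their 95% intervals, and diamonds mark the 6 genes whose groups did not overlap. Ndrg1 and Slc16a1 lie left of 0 and Pdk4 right of 0 with intervals that leave out 0, and the other 27 intervals contain it.

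Both groups had the RNA of CAR cells, and markers of other cell types differed between arrays. The array medians ran from 79.4 to 87.5 in intensity, and the 10 CAR cell markers averaged 11.11 to 11.75 in log2 intensity on every array. Dmp1, which checks the sort, was 9.72-fold higher in targeted cells (log2 difference 3.28, limma adjusted p = 0.384). The other osteocyte markers did not go with it. Sost, Fgf23 and Phex differed by 0.037, 0.091 and -0.22 with overlapping groups, and Mepe was dim. All 10 CAR markers were lower in targeted cells, their summed intensity running from 28539 to 36870 against 34235 to 41997. The 7 osteoblast markers tested were all higher, at a summed 18505 to 28641 against 13668 to 16769. Of 8 neutrophil markers tested, 7 were lower, and all 10 with a value had a summed intensity of 953 to 11205 on the targeted and 8779 to 13732 on the non-targeted arrays. The lowest of these was targeted replicate 1, and the listed genes' differences are given below with and without it. That array also had the highest Dmp1, at 11.28 against 10.03 and 9.89 on the other targeted arrays. Its summed osteoblast markers (28641) were the highest of all arrays, and its summed CAR markers (36870) the highest of the targeted ones. Leaving it out therefore changes more than the neutrophil RNA. All 3 B cell markers tested were lower in targeted cells, at a summed 346 to 554 against 445 to 922 for the 4 with a value. Of these Vpreb1, a gene of B cell precursors, had a log2 difference of -1.54 (means of 8.72 and 7.18) with overlapping groups. Cd79b and Igll1 hardly differed, at -0.016 and -0.0064. Pf4, platelet factor of megakaryocytes, was highest on non-targeted replicate 1 at 8.18 and lowest on targeted replicate 1 at 5.45, a log2 difference of -0.79. The other 2 megakaryocyte markers tested were slightly higher in targeted cells, Itga2b by 0.077 and Gp9 by 0.0026. Ppbp, also of that list, was dim and differed by -0.51. Of 11 dissociation and immediate early genes tested, 10 were lower in targeted cells (5753 to 6450 against 6197 to 10333). No marker of these lists passed the test, and the part of these cell types and of the handling in the values below was not tested. Erythroid and endothelial markers were low on all arrays, with mean log2 intensities of 6.05 to 6.30 and 5.66 to 5.97.

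The 3 HIF subunits were well above the dim limit on every array. Epas1, the alpha subunit known from endothelial and stromal cells, was at 11.96, 12.42 and 11.96 on the non-targeted arrays and 12.25, 11.48 and 11.63 on the targeted ones, a log2 difference of -0.32 (SE 0.24, 95% interval -0.89 to 0.24). It was -0.55 without targeted replicate 1, -0.17 without non-targeted replicate 2 or targeted replicate 2, and -0.63 on replicates 2 and 3 only. Targeted replicates 2 and 3 were the lowest, and targeted replicate 1 was above 2 of the non-targeted arrays. Hif1a, the broadly expressed alpha subunit, was at 9.27, 9.39 and 9.30 against 9.37, 8.83 and 9.30, a log2 difference of -0.16 (95% interval -0.58 to 0.27). A single array, targeted replicate 2, stood low, and without it the difference was 0.014, against -0.26 without targeted replicate 1. Arnt, the common partner, was at 8.80, 8.86 and 8.76 against 8.97, 8.78 and 7.95, again with 1 low array, targeted replicate 3, without which the log2 difference turned from -0.24 to 0.068. Without targeted replicate 1 it was -0.44. All 3 subunits were lower on average, each with overlapping groups, and none passed the test.

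Genes that lead to the destruction of HIF did not pass the test either. Vhl, the recognition subunit of the ubiquitin ligase, was at 7.21, 6.88 and 6.91 in non-targeted and 6.71, 6.83 and 6.87 in targeted cells. The groups did not overlap, by a narrow margin, and the log2 difference was -0.20 (SE 0.16, 95% interval -0.56 to 0.17, limma adjusted p = 0.9998). Leaving out targeted replicate 1 gave -0.15, and leaving out non-targeted replicate 1 gave -0.09. Egln1, the main oxygen sensor among the hydroxylases, was at 6.75, 7.16 and 6.62 against 7.21, 6.43 and 6.64, with the groups interleaved (difference -0.08). That difference was -0.31 without targeted replicate 1 and 0.081 without targeted replicate 2. Egln3, a hydroxylase gene that HIF itself induces, was dim, with means of 5.30 ± 0.06 and 5.38 ± 0.28 (SD, n = 3 each). Car9, carbonic anhydrase 9 and a common marker of hypoxic tissue, was also dim, at 5.88 ± 0.09 and 5.90 ± 0.17, just below the limit of 6.00. Slc16a1, at a mean of 6.07, was the dimmest listed gene tested.

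Among HIF targets, Ndrg1 showed the largest difference of the 30 genes tested when all 6 arrays counted equally. Adm exceeded it with array weights (-1.20 against -0.94), without non-targeted replicate 1 (-1.10 against -0.74) and on replicates 2 and 3 only (-1.48 against -0.95). Pfkp did without targeted replicate 3 (-0.63 against -0.57) and, barely, without non-targeted replicate 1 (-0.7434 against -0.7432). Ndrg1, a gene induced by low oxygen and by differentiation, was at 9.23, 8.86 and 9.12 on the non-targeted arrays and 8.66, 8.35 and 7.75 on the targeted ones. Every targeted array lay below every non-targeted one, with targeted replicate 3 the lowest. The log2 difference was -0.82 (SE 0.25, 95% interval -1.40 to -0.25), or 1.77-fold lower, with an unadjusted p of 0.0110 and an adjusted p of 0.882 (limma). It was -1.03 without targeted replicate 1, the array low in neutrophil RNA and high in Dmp1 and osteoblast RNA. It ran from -1.03 to -0.57 when each array was left out.

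Adm, the vasodilator peptide adrenomedullin, was also lower on average (log2 difference -0.61, SE 0.47, 95% interval -1.71 to 0.48), but its arrays mixed. It was at 6.57, 8.06 and 7.99 in non-targeted and 7.68, 6.34 and 6.76 in targeted cells, so that non-targeted replicate 1 was low with targeted replicates 2 and 3. When each array was left out its difference ran from -1.10, without non-targeted replicate 1, to -0.32, without targeted replicate 2, and it was -0.99 without targeted replicate 1. The other targets tested overlapped between the groups. Bnip3, a mitophagy receptor, was at 8.15 ± 0.19 against 8.11 ± 0.24 and Ddit4, an inhibitor of mTORC1 signalling, at 7.05 ± 0.05 against 7.11 ± 0.18 (SD, n = 3). Ankrd37, a small HIF target, was the steadiest listed gene, at 6.86 ± 0.02 against 6.87 ± 0.07, with a total range over the 6 arrays of 0.14.

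**Figure D2:**
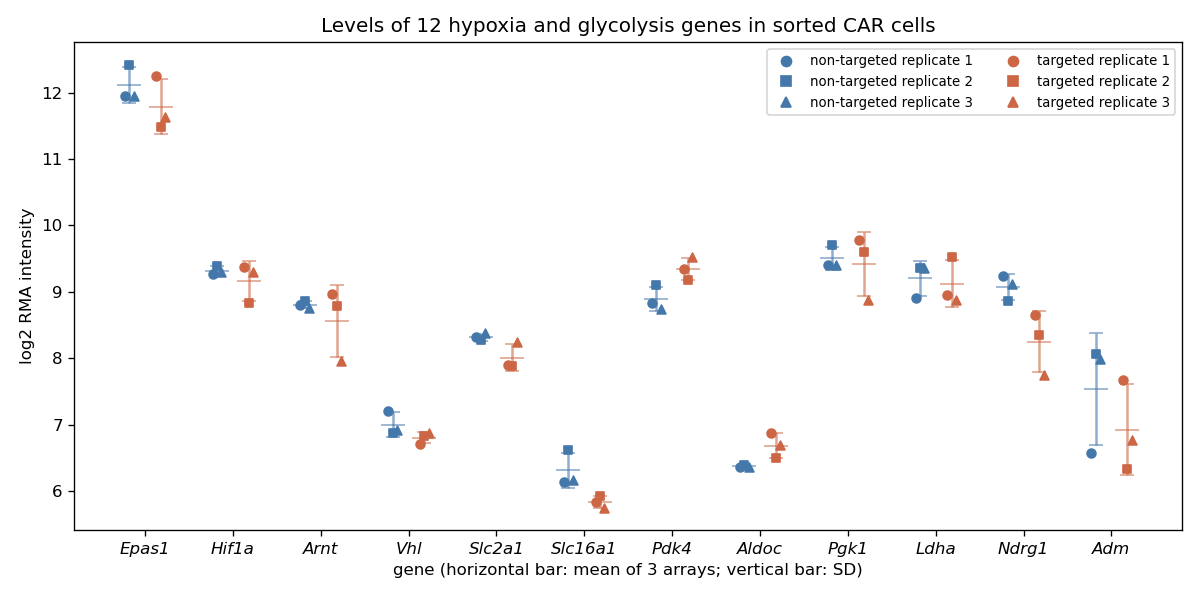
The vertical axis is log2 RMA intensity for 12 of the listed genes. Each point is 1 array, blue for non-targeted and orange for targeted cells, with the mean and SD of 3 arrays as bars. Targeted arrays of Ndrg1 lie at 7.75 to 8.66, all below the non-targeted 8.86 to 9.23, while those of Adm, Hif1a, Pgk1 and Ldha mix with the non-targeted ones.

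The 3 glucose carriers were lower on average without passing, and for Slc2a3 the direction rested on single arrays. Slc2a1 (GLUT1), the carrier for basal glucose uptake, was at 8.31, 8.27 and 8.37 in non-targeted and 7.90, 7.88 and 8.24 in targeted cells. The groups did not overlap, though targeted replicate 3 came close to the non-targeted arrays. The log2 difference was -0.31 (SE 0.16, 95% interval -0.68 to 0.06, limma adjusted p = 0.9998), and -0.26 without targeted replicate 1. Slc2a3 (GLUT3), a carrier of high affinity, was at 8.55 ± 0.43 against 8.49 ± 0.20, with non-targeted replicate 2 highest at 9.04. Its difference of -0.06 turned to 0.19 without that array, to 0.057 without targeted replicate 2 and to 0.014 with array weights. Slc2a4 (GLUT4), the insulin-responsive carrier of fat and muscle, was at 6.66 ± 0.12 against 6.55 ± 0.11 (SD, n = 3), a difference of -0.11.

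The enzymes of glycolysis showed no common direction. Of 11 tested, 4 were higher and 7 lower in targeted cells, with a median log2 difference of -0.08. The 4 include Hk1, at 0.07 on its brightest probe set and -0.01 on the RefSeq-listed one, as described below. Hk2, the inducible hexokinase, was at 6.78, 6.17 and 6.61 against 6.42, 6.81 and 6.86 (difference 0.18, 95% interval -0.31 to 0.67). The lowest array, non-targeted replicate 2, carried that value, since without it the difference was 0.0055, and without targeted replicate 1 it was 0.32. The phosphofructokinase isoforms, which catalyse the committed step, differed by -0.13 for the liver type Pfkl, 0.27 for the muscle type Pfkm and -0.54 for the platelet type Pfkp. Without targeted replicate 3 the Pfkm difference was 0.11, and without targeted replicate 1 it was 0.40. The Pfkp value rested on non-targeted replicate 2, which was at 7.78 while the other 5 arrays lay at 6.31 to 6.69, and without it the difference was -0.17.

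Aldoc, the brain-type aldolase, was the enzyme whose groups did not overlap. It was at 6.36, 6.39 and 6.37 in non-targeted and 6.87, 6.49 and 6.69 in targeted cells, the targeted arrays all higher. The log2 difference was 0.31 (SE 0.15, 95% interval -0.05 to 0.67, limma adjusted p = 0.9998), and 0.22 without targeted replicate 1. Aldoa, the muscle and general aldolase, went the other way on average, at 9.62 ± 0.36 against 9.42 ± 0.02 (SD, n = 3), with overlapping groups. Its single arrays were at 9.21, 9.85 and 9.81 in non-targeted and 9.44, 9.40 and 9.41 in targeted cells.

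The later enzymes of the pathway overlapped between the groups, and Eno2 lay close to the dim limit. Pgk1, which makes the first ATP of the pathway, was at 9.41, 9.70 and 9.40 in non-targeted and 9.78, 9.60 and 8.88 in targeted cells. The log2 difference was -0.08 (95% interval -0.67 to 0.50), with targeted replicate 1 the highest array and targeted replicate 3 the lowest. The Pgk1 difference was -0.27 without the former and 0.19 without the latter. Pgam1, the phosphoglycerate mutase, followed the same order at its ends, at 7.93, 8.76 and 8.58 against 8.88, 8.26 and 7.59, a difference of -0.18 that became -0.50 without targeted replicate 1 and 0.15 without targeted replicate 3. Tpi1, which interconverts the triose phosphates, was at 7.92 ± 0.20 against 7.88 ± 0.29 and Eno2, the neuronal enolase, at 6.28 ± 0.31 against 6.16 ± 0.24 (SD, n = 3). Eno2 was below the dim limit on non-targeted replicate 2 (5.93) and targeted replicate 1 (5.89). Pfkfb3, whose product raises the activator of phosphofructokinase, was at 7.14, 7.38 and 7.10 against 7.20, 6.93 and 6.93, a difference of -0.18 (95% interval -0.56 to 0.19). Its relative Pfkfb4 was dim, at 5.74 ± 0.03 and 5.68 ± 0.16.

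At the branch of pyruvate, 2 genes with an interval that left out 0 differed in opposite directions. Pdk4, the kinase that switches off pyruvate dehydrogenase and so spares glucose when fat is burned, was at 8.84, 9.10 and 8.74 in non-targeted and 9.34, 9.18 and 9.52 in targeted cells. All targeted arrays were higher, for a log2 difference of 0.45 (SE 0.17, 95% interval 0.06 to 0.84), or 1.37-fold, with an unadjusted p of 0.0298 and an adjusted p of 0.970 (limma). Slc16a1 (MCT1), a carrier of lactate and pyruvate, was at 6.14, 6.62 and 6.17 against 5.84, 5.92 and 5.74. All targeted arrays were lower, for a log2 difference of -0.47 (SE 0.18, 95% interval -0.89 to -0.06), or 1.39-fold, with an adjusted p of 0.971 (limma). Both values lie near those without targeted replicate 1, at 0.45 for Pdk4 and -0.47 for Slc16a1. Slc16a1 lay below the dim limit on all targeted arrays, which limits how far its level can be read there. Its means were 6.31 in non-targeted and 5.84 in targeted cells, so it entered the test only through the non-targeted arrays.

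The remaining pyruvate and lactate genes overlapped. Ldha, the lactate dehydrogenase subunit that favours lactate formation, was at 8.90, 9.35 and 9.35 against 8.96, 9.53 and 8.88, a difference of -0.08 (95% interval -0.61 to 0.45). Slc16a3 (MCT4), the lactate exporter of glycolytic cells, was at 6.60 ± 0.15 against 6.73 ± 0.17. Pdk1, a kinase of pyruvate dehydrogenase that HIF induces, was dim, at 4.99 ± 0.24 against 5.03 ± 0.21 (SD, n = 3).

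In all, the groups were fully apart for 6 of the 30 genes tested: Aldoc and Pdk4 higher, and Slc2a1, Slc16a1, Vhl and Ndrg1 lower in targeted cells. Among them, Slc16a1 entered the test only through its non-targeted arrays. Over all genes tested, 9.07% had groups fully apart, 3.32% higher and 5.76% lower. A difference of at least 1.5-fold was found for 2 of the 30, Ndrg1 and Adm, against 4.51% of all genes. Without targeted replicate 3 both were below that size, at -0.57 and -0.53, and Pfkp was above it at -0.63. Adm was also below it without non-targeted replicate 2 (-0.35), non-targeted replicate 3 (-0.39) or targeted replicate 2 (-0.32), and Pfkp above it without non-targeted replicate 1 (-0.74) or non-targeted replicate 3 (-0.72). With 3 arrays against 3, an exact two-sided permutation test of a single gene cannot give a p below 0.10.

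The other listed genes' differences without targeted replicate 1, the array low in neutrophil RNA and high in Dmp1 and osteoblast RNA, were as follows. Slc2a3 was at -0.097, Slc2a4 at -0.065 and Pfkfb3 at -0.27. Among the enzymes, Hk1 was at 0.022, Pfkl at -0.12, Pfkp at -0.45, Aldoa at -0.22, Tpi1 at -0.14 and Eno2 at 0.018. Ldha was at 0.0023, Ldhb at -0.13 and Slc16a3 at 0.23, and of the HIF targets Bnip3 was at 0.094 and Ddit4 at 0.15, with Ankrd37 at -1.7e-05. The signs of Eno2, Ldha, Ldhb, Bnip3 and Ankrd37 differ from those with all arrays.

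For 5 listed genes the value depended on which probe set stood for the gene. The rule took the brightest of the probe sets that name the gene only, and for Hk1, the general hexokinase, that was probe set 10414661 at a mean of 11.80. It was at 11.61, 11.93 and 11.75 in non-targeted and 11.93, 11.89 and 11.68 in targeted cells. The platform's annotation lists a single sequence record for it, with no RefSeq transcript. The same record is listed for 16 further probe sets that name several genes, all of them naming Rpl17, a ribosomal protein gene, and their mean levels had a median of 11.78. The other Hk1 probe set, 10369541, lists 4 RefSeq transcripts and was at 7.07 in non-targeted and 7.05 in targeted cells, on the single arrays 7.15, 7.07 and 6.97 against 7.03, 7.07 and 7.06. In all, 18 probe sets list that record. Whether the brighter Hk1 probe set measures hexokinase, Rpl17 or both cannot be told from it. The groups overlapped on both probe sets, with log2 differences of 0.07 and -0.01.

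Ldhb, the subunit that favours pyruvate, turned direction with the probe set. The brightest, 10462035, was at 7.52, 7.82 and 7.15 against 8.17, 7.28 and 7.45, a log2 difference of 0.14. The other, 10549097, was at 7.93, 7.99 and 7.37 against 7.66, 7.15 and 7.18, a difference of -0.44, with overlapping groups on both. Probe set numbers follow the chromosomes for 96.6% of the probe sets that name 1 gene, in that most of the 20 nearest in number name genes of the same chromosome. By this measure 10549097 and the RefSeq-listed Hk1 set lie among genes of their own chromosome, and 10462035 and the bright Hk1 set do not. Pgk1 had 2 probe sets with identical values on every array and 1 more, numbered among its own chromosome, at 9.10, 9.43 and 9.10 against 9.54, 9.28 and 8.62. Pgam1 likewise had 2 identical probe sets, and 1 more, 10497321, not numbered among its own chromosome, had a difference of -0.33 against the -0.18 of the others. Probe sets with identical values do not separate near-identical copies of a gene, so the values of these enzymes are uncertain to that extent. Among the 999 genes with several probe sets, the brightest lay outside its gene's own chromosome, while another lay within it, for 201, or 20.1%.

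**Figure D3:**
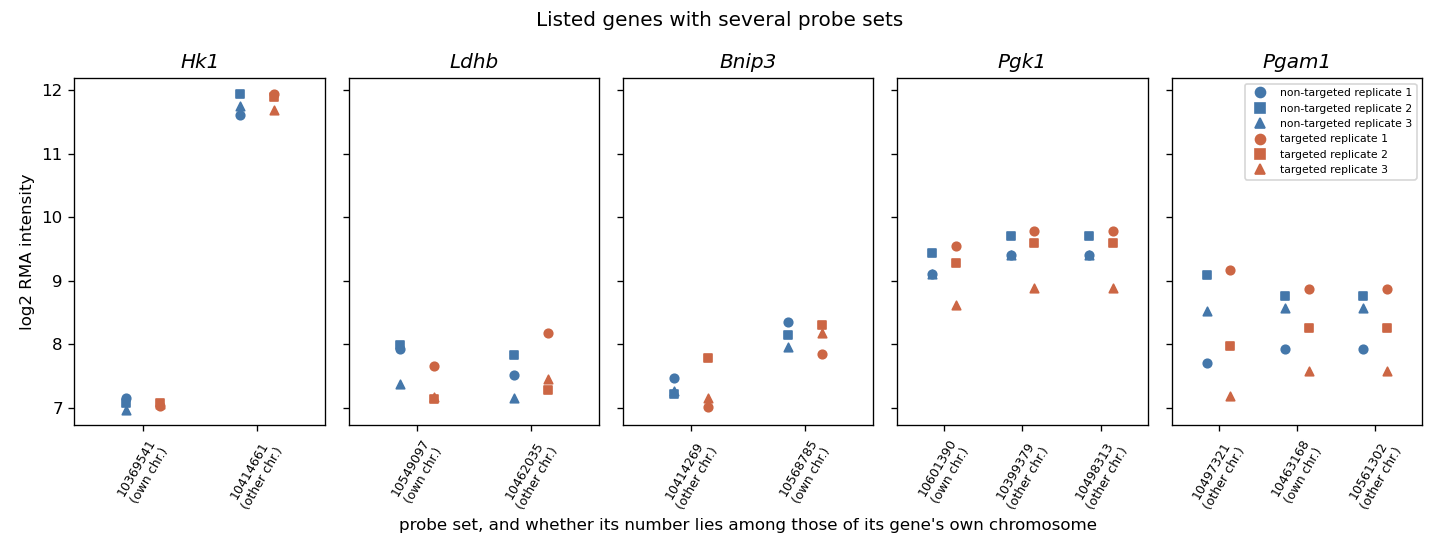
The vertical axis is log2 RMA intensity of every probe set that names Hk1, Ldhb, Bnip3, Pgk1 or Pgam1 only. Points are single arrays, and the labels say whether the probe set's number lies among those of its gene's own chromosome. The Hk1 sets lie near 7.06 and 11.80, and the Ldhb sets order the groups in opposite ways.

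Across the arrays the listed genes did not move as one block. Over the 435 pairs of tested genes the median correlation across the 6 arrays was 0.085, as a description over arrays that share their groups. The most alike were Hk2 with Slc16a3 (0.97), Pfkfb3 with Epas1 (0.97) and Pgk1 with Arnt (0.94), and the most opposed were Slc16a3 with Epas1 (-0.93). Non-targeted replicate 2 held the highest value for 10 of the 30 genes (33.3%), against 21.4% of all genes. Targeted replicate 3 held the lowest for 9 of the 30, and for 19.1% of all genes.

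**Figure D4:**
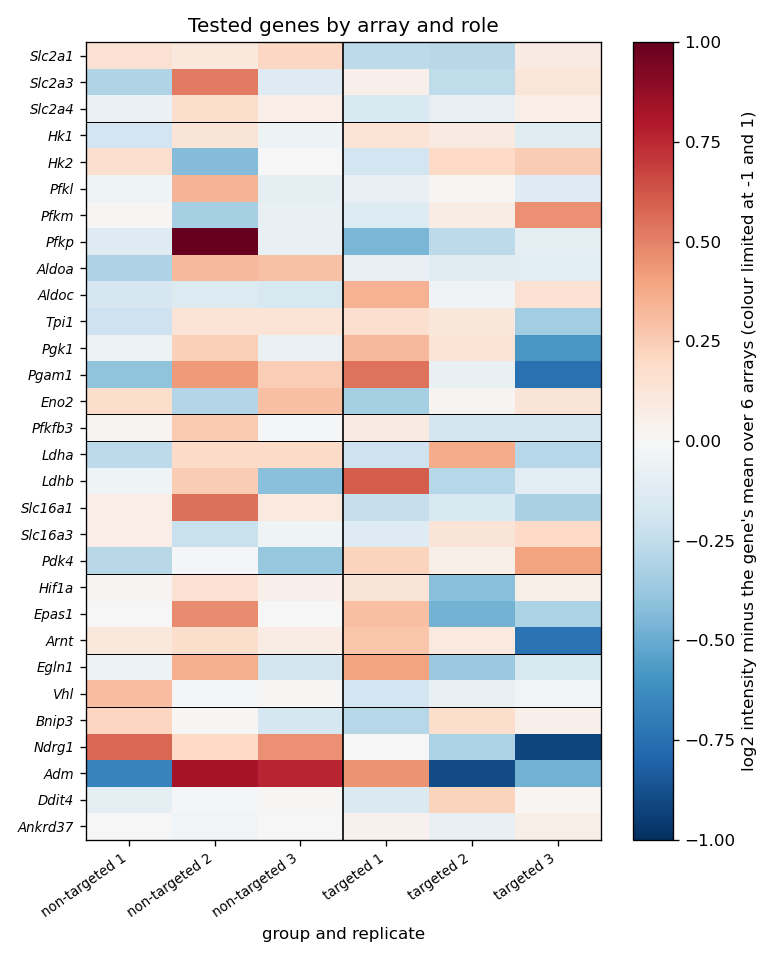
Colours give the log2 intensity of each of the 30 listed genes tested on each array, minus that gene's mean over the 6 arrays, with rows by role. Adm, Pgam1 and Epas1 vary strongly within both groups, and Ndrg1 is lower on all 3 targeted arrays than on the non-targeted ones.

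HIF binds a short DNA core, written ACGTG or GCGTG, close to many of the genes listed. To show which listed genes carry these letters, the 250 bases before the start sites in RefSeq (GRCm38.p6) were searched on both strands, where CACGT and CACGC are the opposite-strand readings. CACGTG matches on both strands and overlaps the E-box, which MYC and other factors bind. Either core was found in 36 of 44 windows of 32 listed genes, or 81.8%, against 38.6% of all 32851 windows. The listed windows were also richer in G and C, at a median of 60.4% against 52.4%, and the shares were not matched for that. Known HIF targets were put on the list by name, so a larger share could be expected beforehand. Windows of the same gene can overlap, as for Aldoa and Eno1, so that a match counts in more than 1 window. The windows searched include those of Gpi1 and Eno1, whose expression was not analysed. Slc2a3, Slc2a4, Epas1 and Ndrg1 were not searched. The sequences shown are those of Pgk1 and Ldha, known HIF targets that overlapped between the groups, and of Slc2a1, Slc16a1 and Pdk4, whose groups did not overlap. They lie at chrX:106186850-106187099 for Pgk1, chr7:46845554-46845803 for Ldha, chr4:119108495-119108744 for Slc2a1 and chr3:104638414-104638663 for Slc16a1, all on the plus strand, and at chr6:5496279-5496528 on the minus strand for Pdk4. They read 5′ to 3′ toward the start site, with the matches in capitals.
Pgk1: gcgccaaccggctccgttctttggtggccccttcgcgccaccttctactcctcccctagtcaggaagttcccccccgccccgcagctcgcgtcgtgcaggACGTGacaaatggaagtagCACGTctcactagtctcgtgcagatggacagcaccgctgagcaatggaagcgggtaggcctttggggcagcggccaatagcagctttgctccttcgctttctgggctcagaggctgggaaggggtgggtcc
Ldha: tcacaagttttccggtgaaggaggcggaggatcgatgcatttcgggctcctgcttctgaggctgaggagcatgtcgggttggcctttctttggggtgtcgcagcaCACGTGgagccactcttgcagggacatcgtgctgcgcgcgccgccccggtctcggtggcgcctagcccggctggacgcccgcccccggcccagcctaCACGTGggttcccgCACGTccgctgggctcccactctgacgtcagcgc
Slc2a1: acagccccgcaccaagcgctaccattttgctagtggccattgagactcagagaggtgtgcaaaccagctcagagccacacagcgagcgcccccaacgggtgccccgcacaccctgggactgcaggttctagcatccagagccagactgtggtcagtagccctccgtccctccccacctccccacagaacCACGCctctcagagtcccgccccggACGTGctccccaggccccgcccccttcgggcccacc
Slc16a1: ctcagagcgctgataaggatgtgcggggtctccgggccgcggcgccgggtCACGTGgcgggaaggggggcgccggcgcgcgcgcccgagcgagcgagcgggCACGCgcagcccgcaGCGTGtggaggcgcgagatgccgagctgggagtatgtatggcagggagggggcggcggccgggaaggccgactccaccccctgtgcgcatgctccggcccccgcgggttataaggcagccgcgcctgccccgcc
Pdk4: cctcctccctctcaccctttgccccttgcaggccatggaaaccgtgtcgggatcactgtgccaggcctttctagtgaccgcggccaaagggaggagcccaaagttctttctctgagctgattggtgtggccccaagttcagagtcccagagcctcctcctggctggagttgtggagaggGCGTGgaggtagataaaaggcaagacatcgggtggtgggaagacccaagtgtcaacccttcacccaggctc
Pgk1 has matches that begin 150 and 131 bases before its start. Ldha has both CACGTG copies and a single CACGT within 145 bases, and Slc16a1 has 1 CACGTG and 2 GCGTG cores. Slc2a1 holds 1 of each core and Pdk4 a single GCGTG 71 bases before its start. The window of Vhl has neither core. Each window of Aldoc, whose groups did not overlap, holds a single GCGTG, at 50 or 39 bases before the start. A further window of Ldha holds a single GCGTG, 59 bases before its start. These windows are not shown. Of the genes shown with matches, Pdk4 was higher and Slc16a1 and Slc2a1 were lower on all targeted arrays. A match in these letters is not a measured binding site.

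Other genes of the same pathways, outside the list, did not pass either. Of 33 other genes of glycolysis, pyruvate and glycogen use that were tested, 9 were higher and 24 lower in targeted cells, with a median log2 difference of -0.11, and 0 passed (2 had an unadjusted p under 0.05, limma). Those with the smallest p were Dld (-0.62), the shared dehydrogenase subunit of the pyruvate complex, Pklr (-0.37), a pyruvate kinase of liver and red cells, Slc2a12 (-0.62), a glucose carrier, Pygm (0.36), the muscle glycogen phosphorylase, and Slc16a7 (-0.86), a carrier of pyruvate and lactate. Of the 33, only Pklr was lower and only Pygm higher on all targeted arrays than on any non-targeted one. Over all genes tested, 5.76% were so lower and 3.32% so higher. The Slc16a7 value came largely from targeted replicate 3, at 6.33 where the other 5 arrays lay at 8.27 to 8.99. The remaining subunits of the pyruvate dehydrogenase complex, named after their values were seen, were lower as well without passing, at -0.41 for Pdha1, -0.61 for Pdhb, -0.18 for Dlat and -0.10 for Pdhx. Pkm, the main pyruvate kinase, differed by 0.10.

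Of 38 other HIF regulators and hypoxia targets tested, 18 were higher and 20 lower, with a median of -0.01, and 0 passed (1 had an unadjusted p under 0.05, limma). Those with the smallest p were P4ha1 (-0.43), a collagen prolyl hydroxylase, Lox (-0.75), the collagen cross-linking oxidase, Cited2 (-0.53), which competes with HIF for its coactivators, Arnt2 (0.32), a relative of Arnt, and Plod2 (0.56), a collagen lysyl hydroxylase. Of the 38 tested, only P4ha1 and Cited2 were lower and only Arnt2 higher on all targeted arrays than on any non-targeted one. Over all genes tested, 5.76% were so lower and 3.32% so higher. Vegfa, the vessel growth factor that HIF induces, was at 8.60 ± 0.20 against 8.61 ± 0.35 (SD, n = 3), with the groups interleaved. The groups of Lox and Plod2 overlapped, and the related collagen-modifying genes P4ha2 and Plod1, named after their values were seen, differed by 0.0055 and -0.13.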

How the data were processed

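RNA amplified from picogram to nanogram amounts was measured on 1 array per sample. The authors deposited linear array intensities, which the submitters' processing notes name as RMA values of Affymetrix Expression Console 1.4, and log2 was taken here. Annotation and build of that step: not given in the sources used here. Precision is limited by the 6 arrays, and no detection calls were used. Of 35556 probe sets, the 21789 that name 1 gene in the platform's annotation were used (1621 named several, 12146 none). For 21698 of the 21789, the symbol was taken from RefSeq (GRCm38.p6) by Entrez identifier. The brightest probe set stood for a gene, and the dimmest 33.3% of genes (log2 at or below 6.00) were left out. limma 3.58.1 in R 4.3.3 (lmFit, eBayes, two-sided, no covariate) compared the groups, with Benjamini-Hochberg adjustment over 13292 genes, and gave the SEs and intervals. Labels call the samples biological replicates. Same-numbered samples did not deviate together (correlations of -0.26, -0.12 and 0.07), so the numbers were not used as pairs. The gene lists and the naming rule were chosen with earlier results of these data known. The rule gave every array for listed genes with groups apart, of at least 1.5-fold, central to the pathway or among the brightest listed. Of each other list it named the 5 smallest p. Single arrays of Pgam1, Ldhb and further probe sets were given as well. Alternatives changed the dim filter, scaling, variance model, probe set choice, block and arrays, and the choice of probe sets by number was made after seeing the data. Figures were drawn with matplotlib 3.10.9.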

Additional observations from a re-analysis of the deposited data

How the results depend on the processing

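Under all 17 alternative settings, 0 listed genes passed limma's threshold, and their smallest adjusted p was 0.131, for Ndrg1 with array weights. Over all genes, 1 gene passed with array weights and 1 with the replicate block as a fixed term, Dmp1 in both cases (adjusted p = 0.0259 and 0.0153). With the replicate number as a random block (correlation -0.27) 0 passed, and the block changed no other call. The listed genes' median difference was -0.22 on replicates 2 and 3 only, and ran from -0.16 to -0.0077 when each array was left out. Of 506 values of listed genes under alternatives 38 changed sign, and 15 genes, among them Ndrg1, Pdk4, Slc16a1, Slc2a1, Aldoc and Vhl, never did. Many of the 506 could not change sign, since the dim filter, intensity trend and block settings leave each difference as it was. The probe set settings could move only the 5 genes with several probe sets. The cause of the sign changes was not tested, beyond the change of probe set or arrays itself. With quantile scaling Tpi1 was at 0.0052 and Bnip3 at 0.0065. With array weights Slc2a3 was at 0.014, Pfkl at 0.0031, Bnip3 at 0.19 and Ankrd37 at -0.013. With the mean of probe sets Ldhb was at -0.15, and with the probe set numbered among its own chromosome Ldhb was at -0.44 and Hk1 at -0.012. On replicates 2 and 3 only Hk1 was at -0.054, Eno2 at 0.077, Ldhb at -0.12 and Bnip3 at 0.19. Leaving out each array, values ran from -0.22 to 0.19 for Slc2a3, -0.0042 to 0.16 for Hk1, -0.21 to 0.0067 for Pfkl, -0.15 to 0.12 for Tpi1, -0.27 to 0.19 for Pgk1, -0.50 to 0.15 for Pgam1, -0.30 to 0.018 for Eno2, -0.285 to 0.040 for Ldha, -0.13 to 0.32 for Ldhb, -0.26 to 0.014 for Hif1a, -0.44 to 0.068 for Arnt, -0.31 to 0.081 for Egln1, -0.14 to 0.094 for Bnip3, -0.035 to 0.15 for Ddit4 and -0.0073 to 0.060 for Ankrd37. With 3 arrays a group, signal near the dim limit, as for Slc16a1, cannot be read closely.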
